A study of Mus musculus with 6 samples.

Results

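The large proteoglycans and the hyaluronan system were followed through 8 genes in mouse soleus, *Vcan*, *Acan*, *Hspg2*, *Prg4*, *Hapln1*, *Has1*, *Has2* and *Cd44*. They form a gene family list that was put together with earlier results of these data known, and all 8 were found by symbol among the 16247 genes of the deposited normalized table and joined to the raw read counts by Ensembl gene ID. The comparison was between 3 mice heterozygous for the *Mustn1* KO-first allele (HET) and 3 wild-type (WT) littermates, all 8 weeks old, of the strain labelled C57BL6/N and labelled male. The KO-first allele (tm1a, a EUCOMM line kept on C57BL/6N and bred free of an albino tyrosinase allele) is carried in every cell of the body. A reporter and drug selection cassette (lacZ, neomycin resistance) in the gene captures its transcript, though some normal transcript can escape, and the HET mice keep 1 intact copy of the gene.

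Large proteoglycans are core proteins that carry long sulfated sugar chains and bind much water. Versican (*Vcan*) and aggrecan (*Acan*) hang along threads of hyaluronan, an unsulfated sugar polymer, and the link protein encoded by *Hapln1* pins them there. Hyaluronan is spun out at the plasma membrane by synthases such as those of *Has1* and *Has2*, and CD44 (*Cd44*) is its main receptor on cells. Perlecan (*Hspg2*) is the heparan sulfate proteoglycan of basement membranes, which surround every muscle fiber and capillary, and lubricin (*Prg4*) is a mucin-like glycoprotein that lubricates joint and tendon surfaces.

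Each mouse gave 1 library with between 26790075 and 50368796 reads on genes. *Mustn1* itself lay between 12.6 and 16.8 CPM (read counts per 1e6 reads on genes, scaled between libraries) in HET and between 23.1 and 30.5 CPM in WT mice. At a log2 fold change of −0.96 (SE 0.15, edgeR adjusted p = 0.0452) it was the only gene called lower, beside 21 genes called higher. The muscle genes *Acta1* and *Myh7* were abundant in all 6 libraries, the latter at 14175 ± 511 CPM (SD, n = 3) in HET and 14062 ± 397 CPM (SD, n = 3) in WT mice. The libraries went against the labelled sex, with at least 3858 reads on *Xist* in each and at most 12 reads in any of them on the 4 Y-linked genes *Ddx3y*, *Kdm5d*, *Uty* and *Eif2s3y* together. This held for both genotypes alike.

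Of the 6 genes that could be tested, lubricin and hyaluronan synthase 1 differed most between the genotypes, each being about 5 times higher on average in HET mice. Neither passed an adjusted p of 0.05 by edgeR (0.406 and 0.163), and without HET mouse 3 the ratios of means were 2.96 and 3.81. *Has1* entered the test only through its HET libraries, so its rank here was not open to the opposite outcome. Versican was higher on average by a smaller factor, with a wide spread among HET mice, and the ranges of *Has2*, *Cd44* and *Hspg2* overlapped between the genotypes. *Acan* and *Hapln1* were read only a few times per library. HET mouse 3 held the highest level of the 6 mice for 7 of the 8 genes, the exception being *Hspg2*, whereas it was the highest for 18.2% of all 16247 genes. Most markers of macrophages and fibroblasts, given below, shared this.

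Of the 8 genes, 6 passed the filter on low counts and were tested with edgeR's quasi-likelihood test among 14696 genes. *Has1* passed that filter only through its HET libraries and so, at its WT level, could be tested only if it was higher in HET. All 6 had log2 fold changes above 0, and 0 of the 6 passed an adjusted p of 0.05, where 0.143% of all genes tested passed as higher in HET. At an unadjusted p below 0.05, 3 of the 6 were higher (*Vcan*, *Prg4* and *Has1*), against 5.76% of all genes tested. DESeq2's Wald test called 2 of the 6, *Prg4* and *Has1*, against 1.51% of genes, and limma-voom called 0. Leaving out *Has1*, 5 of 5 lay above 0, 2 of 5 were higher at an unadjusted p below 0.05 and DESeq2 called 1 of 5. Without the filter, edgeR called 2 of the 8, *Vcan* and *Has1*, against 1.33% of the genes then tested. In 4 of the 8 genes (*Prg4*, *Has1*, *Acan* and *Hapln1*) every HET mouse lay above every WT mouse, against 7.73% of the 16247 genes. Leaving out HET mouse 3 cannot undo such a separation, so it is no check on it. Without that mouse the count stayed at 4 of the 8 genes, against 11.2% of genes. Of the separated genes, *Has1*, *Acan* and *Hapln1* had at most 47 reads in any library, and the shares over all genes were not matched for depth.

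**Figure D1:**
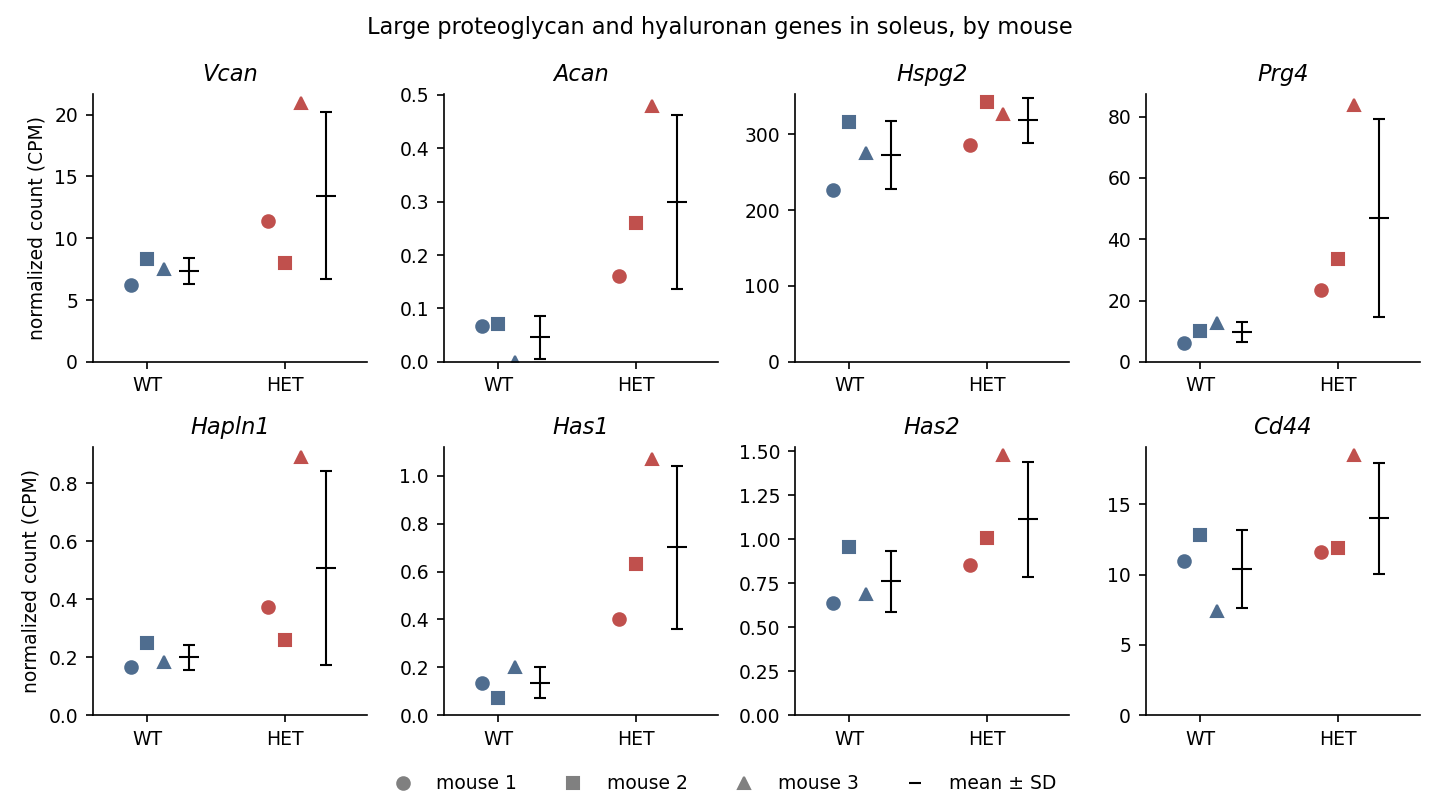
Normalized counts (CPM, linear axes from 0) of the 8 genes in each mouse, with WT mice in blue, HET mice in red, the mouse number as the shape, and the mean ± SD of 3 mice in black. HET mouse 3 is the highest point in every panel but that of *Hspg2*, and the genotypes do not overlap for *Acan*, *Prg4*, *Hapln1* and *Has1*.

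The region around the transcription start of 4 of the genes is shown because they span the range of the differences, from *Has1* (the largest log2 fold change among tested genes with an entry) through *Vcan* to *Hspg2* (smallest), with *Hapln1* as the neighbor of *Vcan*. The windows come from RefSeq on GRCm38.p6, cover 250 bases before to 50 bases after the start, and are written 5′ to 3′ on the strand of the gene. Capitals mark matches, on either strand, to GGGCGG (the GC box), CCAAT (bound by the factor NF-Y), TATAAA (the TATA box) or TGANTCA (the AP-1 site), and overlapping matches were each counted.
Has1 (chr17:17855139-17855438, minus strand): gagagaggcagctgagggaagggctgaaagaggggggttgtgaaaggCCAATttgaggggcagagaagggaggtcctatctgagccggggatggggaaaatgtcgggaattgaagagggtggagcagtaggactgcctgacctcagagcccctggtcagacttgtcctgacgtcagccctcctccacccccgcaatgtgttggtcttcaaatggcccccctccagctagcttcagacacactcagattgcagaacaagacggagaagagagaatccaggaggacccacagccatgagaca
Vcan (chr13:89742463-89742762, minus strand): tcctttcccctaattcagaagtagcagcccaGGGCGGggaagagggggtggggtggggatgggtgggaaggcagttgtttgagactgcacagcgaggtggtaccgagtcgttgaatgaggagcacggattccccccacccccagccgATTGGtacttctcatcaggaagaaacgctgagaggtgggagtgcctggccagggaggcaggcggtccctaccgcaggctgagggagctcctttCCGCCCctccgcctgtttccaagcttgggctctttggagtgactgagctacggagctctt
Hspg2 (chr4:137468553-137468852, plus strand): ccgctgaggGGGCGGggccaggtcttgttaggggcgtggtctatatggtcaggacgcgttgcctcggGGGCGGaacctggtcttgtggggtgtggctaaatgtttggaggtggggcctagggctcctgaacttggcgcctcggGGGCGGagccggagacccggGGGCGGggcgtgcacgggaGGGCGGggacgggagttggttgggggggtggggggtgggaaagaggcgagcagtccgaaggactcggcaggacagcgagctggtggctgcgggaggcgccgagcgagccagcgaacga
Hapln1 (chr13:89540386-89540685, plus strand): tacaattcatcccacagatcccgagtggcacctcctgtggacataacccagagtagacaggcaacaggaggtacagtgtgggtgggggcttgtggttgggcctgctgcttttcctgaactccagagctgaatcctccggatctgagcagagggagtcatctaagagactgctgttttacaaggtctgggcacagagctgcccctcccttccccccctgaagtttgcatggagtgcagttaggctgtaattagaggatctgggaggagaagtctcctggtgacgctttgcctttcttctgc

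Entries were found for 6 of the 8 genes. The *Hspg2* window held 5 GC-box matches and that of *Acan* 3, *Vcan* held 2 and *Cd44* held 1, while the windows of *Hapln1* and *Has1* held 0. A GC box is present in 35.7% of all 32851 promoter windows of the table. The CCAAT motif was found once each in *Vcan*, *Acan* and *Has1*, and in 37.4% of all windows. The TATA box, present in 13.6% of windows, and the AP-1 site, present in 7.81%, were found in 0 of the 6. The share of G and C ran from 54.3% in *Hapln1* and 57.0% in *Has1* to 70.3% in *Hspg2* and 74.0% in *Acan*, with a median of 52.7% over all windows. The *Acan* window ends before the start of the gene in the annotation of the counts, so its matches lie outside that gene model. These matches describe the letters of the windows and were not measured as binding sites.

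*Prg4* (ENSMUSG00000006014) lies on the minus strand of chromosome 1 from 150449412 to 150466165 in GRCm38, the build of all positions given here. It was at 23.6, 33.6 and 83.6 CPM in HET mice 1 to 3 and at 6.22, 9.97 and 12.8 CPM in WT mice 1 to 3. The lowest HET mouse was therefore well above the highest WT mouse, and HET mouse 3 stood far above the other HET mice, at 2.93 times their mean. The means were 46.9 ± 32.2 CPM (SD, n = 3) in HET and 9.65 ± 3.28 CPM (SD, n = 3) in WT mice, and the log2 fold change was 2.27 (SE 0.60, edgeR adjusted p = 0.406), or 4.83-fold. Without HET mouse 3 the log2 fold change was 1.56 (edgeR adjusted p = 0.303). With DESeq2's Wald test the adjusted p was 0.0189 for all mice, and with each mouse left out it lay between 2.45e-05, without HET mouse 3, and 0.245, without WT mouse 1. The call by DESeq2 was lost without HET mouse 2 (adjusted p = 0.0536), WT mouse 1 or WT mouse 2 (adjusted p = 0.161). The 3 genes whose levels followed *Prg4* most closely over the 6 mice were *Apobec1* (Pearson's r = 0.996), *Kdelr3* (0.995) and *Lox* (0.991), the last being a lysyl oxidase that cross-links collagen and elastin. These likenesses rest on 6 libraries of 2 genotypes and are descriptions.

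Aggrecan was near the limit of what these libraries could count. *Acan* (ENSMUSG00000030607, chromosome 7, 79053483 to 79115099, plus strand) had 6, 7 and 21 reads in HET mice 1 to 3 and 2, 2 and 0 reads in WT mice 1 to 3. The genotypes did not overlap, and all 6 libraries were at or below 21 reads. The pooled reads were 34 in HET and 4 in WT mice, a ratio of 8.92 per read on genes (95% exact conditional interval from 3.18 to 34.6, for counting error only). Pooling gives deeper libraries more weight. The ratio of mean CPM was 6.53, or 4.58 without HET mouse 3. *Acan* was left out of the test by the filter, and without the filter its log2 fold change was 2.85 (SE 0.87, edgeR adjusted p = 0.0665).

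The other lectican, versican, was read more deeply, with at least 185 reads in each library. *Vcan* (ENSMUSG00000021614, chromosome 13, 89655312 to 89742509, minus strand) was at 11.4, 8.01 and 21.0 CPM in HET mice 1 to 3 and at 6.19, 8.30 and 7.50 CPM in WT mice 1 to 3. The genotypes overlapped, since HET mouse 2 fell below WT mouse 2, and HET mouse 3 was 2.16 times the mean of the other HET mice. The means were 13.5 ± 6.72 CPM (SD, n = 3) in HET and 7.33 ± 1.07 CPM (SD, n = 3) in WT mice, and the log2 fold change was 0.89 (SE 0.33, edgeR adjusted p = 0.542). Without HET mouse 3 it was 0.41 (edgeR adjusted p = 0.965), the largest drop that leaving out any mouse gave for this gene. Without the filter on low counts the log2 fold change stayed at 0.89 and the edgeR adjusted p was 0.0125. With DESeq2 the adjusted p was 0.0887. Its closest followers over the 6 mice were *Lgi2* (r = 0.996), *Golim4* (0.992) and *Snx19* (0.991).

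The link protein gene *Hapln1* (ENSMUSG00000021613, chromosome 13, 89540636 to 89611832, plus strand) lies next to *Vcan*, with 43479 bases and 0 annotated genes between them and their ends facing each other. It had 14, 7 and 39 reads in HET mice 1 to 3 and 5, 7 and 9 reads in WT mice 1 to 3. After scaling this was 0.374, 0.261 and 0.889 CPM in HET and 0.167, 0.248 and 0.182 CPM in WT mice. HET mouse 2 exceeded WT mouse 2 only narrowly, and both had the same 7 reads. The pooled reads, 60 in HET and 21 in WT mice, gave a ratio of 2.999 (95% exact conditional interval from 1.80 to 5.19, for counting error only). The ratio of mean CPM was 2.55, or 1.59 without HET mouse 3. *Hapln1* too was left out by the filter, and without it the log2 fold change was 1.40 (SE 0.55, edgeR adjusted p = 0.347). A second such pair is *Acan* and the link protein gene *Hapln3* on chromosome 7, whose annotated ends are 2 bases apart. *Hapln3*, which was tested, had means of 0.608 ± 0.412 CPM (SD, n = 3) in HET and 0.657 ± 0.226 CPM (SD, n = 3) in WT mice, and HET mouse 3, the highest for *Acan*, was the lowest of all for *Hapln3* at 0.160 CPM.

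Perlecan was by far the most abundant of the 8 genes and differed least. *Hspg2* (ENSMUSG00000028763, chromosome 4, 137468769 to 137570630, plus strand) was at 285, 342 and 327 CPM in HET mice 1 to 3 and at 226, 316 and 275 CPM in WT mice 1 to 3. The genotypes overlapped, with WT mouse 2 above HET mouse 1, and HET mouse 3 was not the highest. The log2 fold change was 0.22 (SE 0.12, edgeR adjusted p = 0.781), which corresponds to 1.17-fold, and leaving out 1 mouse at a time gave values from 0.11 to 0.34. The smallest adjusted p under any of 24 alternatives was 0.352 (edgeR). Its closest followers were *Csrp1* (r = 0.996), *Fam20a* (0.994) and *Phactr1* (0.989).

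Among the synthases, *Has1* (ENSMUSG00000003665, chromosome 17, 17843328 to 17855188, minus strand) had few reads, with 15, 17 and 47 in HET mice 1 to 3 and 4, 2 and 10 in WT mice 1 to 3. This was 0.401, 0.633 and 1.07 CPM in HET and 0.134, 0.0709 and 0.203 CPM in WT mice. Every HET mouse lay above every WT mouse, and even the lowest, HET mouse 1, was well above the highest, WT mouse 3. The log2 fold change was 2.27 (SE 0.53, edgeR adjusted p = 0.163), or 4.82-fold, and the pooled reads gave a ratio of 5.18 (95% exact conditional interval from 3.002 to 9.51, for counting error only). The filter was 0.297 CPM in at least 3 libraries, above the level of *Has1* in every WT mouse. DESeq2 gave an adjusted p of 0.0456 and edgeR without the filter 0.00301. Without HET mouse 3 the log2 fold change was 1.79 (edgeR adjusted p = 0.669). The DESeq2 call was kept without HET mouse 1 (adjusted p = 0.0484) and lost without any of the WT mice (adjusted p between 0.0665 and 0.238), and without HET mouse 2 or 3 DESeq2 gave no adjusted p. The closest followers of *Has1* were *Ecrg4* (r = 0.990), *Pirb* (0.989) and *Engase* (0.987).

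*Has2* (ENSMUSG00000022367, chromosome 15, 56665627 to 56694539, minus strand) had 32, 27 and 65 reads in HET mice 1 to 3 and 19, 27 and 34 reads in WT mice 1 to 3. The levels were 0.855, 1.01 and 1.48 CPM in HET and 0.635, 0.958 and 0.689 CPM in WT mice. The genotypes overlapped, with WT mouse 2 above HET mouse 1. The log2 fold change of 0.57 (SE 0.33, edgeR adjusted p = 0.792) passed under none of the 24 alternatives tried, the lowest adjusted p being 0.582 (edgeR with the trend on GC content removed and the replicate number as a block). Its closest followers were *Parva* (r = 0.991), *Kcnd1* (0.990) and *Plxnd1* (0.990).

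With the third synthase gene, *Has3*, the make-up of the synthase transcripts could be given for each mouse as levels per length of exon. *Has3* made up the largest share in every mouse, between 57.6% and 77.0% in WT and between 38.5% and 59.5% in HET mice. The share of *Has1* was 23.0%, 22.7% and 36.6% in HET mice 1 to 3 and 6.87%, 3.92% and 15.8% in WT mice 1 to 3. These did not overlap, at 27.4 ± 7.92% (SD, n = 3) against 8.88 ± 6.21% (SD, n = 3). A two-sided exact permutation test gave p = 0.1, the smallest that 3 mice against 3 can give. Groups without overlap always reach this value, so the test adds nothing to the separation. The WT shares rest on 4, 2 and 10 reads of *Has1* in WT mice 1 to 3. The sum of the 3 synthases was 1.19 ± 0.311 CPM per kb (SD, n = 3) in HET and 0.803 ± 0.169 CPM per kb (SD, n = 3) in WT mice, which overlapped (exact permutation test, p = 0.3). The log2 fold change of *Has3* was 0.09 (SE 0.29, edgeR adjusted p = 0.976).

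**Figure D2:**
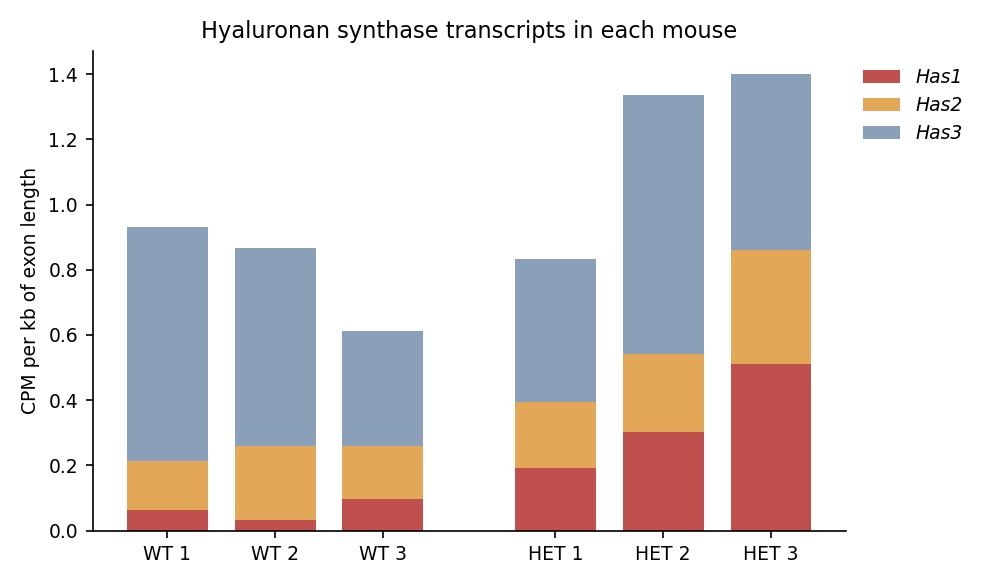
Stacked levels of *Has1*, *Has2* and *Has3* in each mouse, in CPM per kb of exon length. The *Has1* segment takes between 22.7% and 36.6% of the bar in HET mice and between 3.92% and 15.8% in WT mice.

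The receptor gene *Cd44* (ENSMUSG00000005087, chromosome 2, 102811141 to 102901665, minus strand) was at 11.6, 11.9 and 18.6 CPM in HET mice 1 to 3 and at 10.97, 12.8 and 7.42 CPM in WT mice 1 to 3. The groups overlapped, and HET mice 1 and 2 lay within the range of the WT mice. The log2 fold change was 0.44 (SE 0.24, edgeR adjusted p = 0.769) and lay between 0.19, without HET mouse 3, and 0.62, without WT mouse 2. The lowest adjusted p under any alternative was 0.116, from edgeR without the filter. CD44 is made in several spliced forms, which counts per gene do not tell apart. Its closest followers were *Dpy19l1* (r = 0.997), *Trpc4* (0.991) and *Rasgrp1* (0.989).

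**Figure D3:**
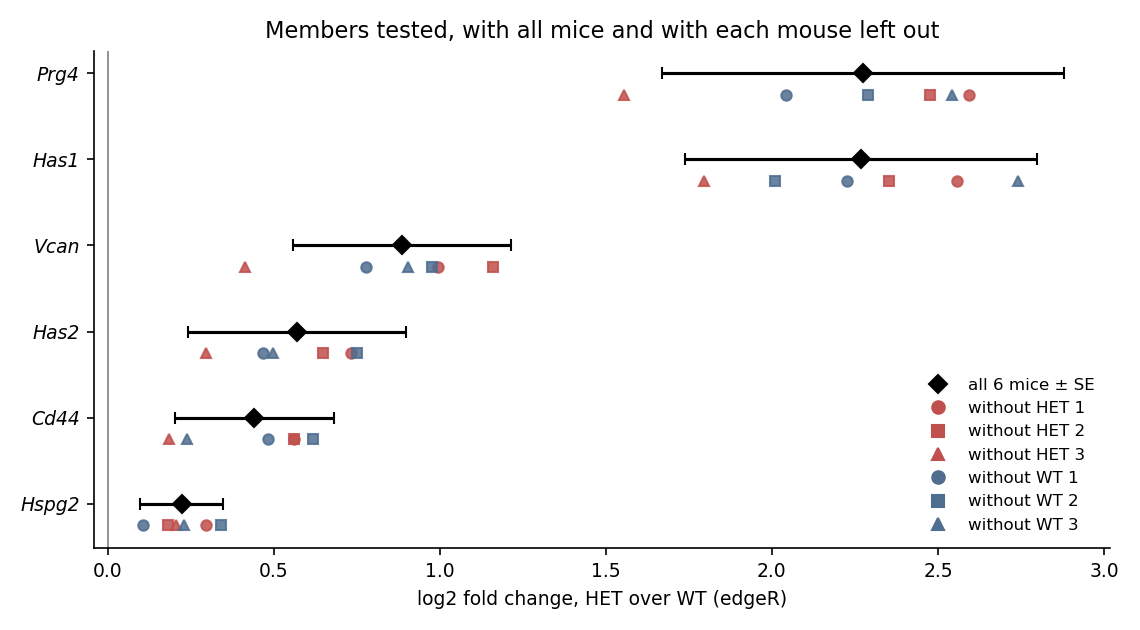
Log2 fold change of HET over WT (edgeR) for the 6 genes tested, with all 6 mice (black, ± SE) and with each mouse left out (colored points just under each diamond). The point without HET mouse 3 is the lowest for *Prg4* (1.56), *Has1* (1.79), *Vcan* (0.41), *Has2* (0.30) and *Cd44* (0.19), while for *Hspg2* the lowest is that without WT mouse 1 (0.11).

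Levels between genes were compared per kb of exon length. In WT mice *Hspg2* was the highest at 19.0 ± 3.14 CPM per kb (SD, n = 3). It was followed by *Prg4* at 2.25 ± 0.767 and *Cd44* at 1.54 ± 0.407 CPM per kb (SD, n = 3), whose spreads overlapped. Next came *Vcan* at 0.507 ± 0.0737 and *Has2* at 0.1795 ± 0.0407 CPM per kb (SD, n = 3), which were apart from each other and from their neighbors. *Has1* at 0.0650 ± 0.0315 and *Hapln1* at 0.0394 ± 0.00852 CPM per kb (SD, n = 3) overlapped, and *Acan* was the lowest at 0.00615 ± 0.00533 CPM per kb (SD, n = 3). In HET mice the first 4 kept this order. *Prg4* reached 10.97 ± 7.52 CPM per kb (SD, n = 3) there, and *Has1*, at 0.336 ± 0.163, stood above *Has2*, at 0.263 ± 0.0772 CPM per kb (SD, n = 3), with overlapping spreads.

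Over the 6 mice, log2 levels of *Prg4* and *Has1* had a Pearson correlation of 0.94, the highest of the 15 pairs among the 6 tested genes, and *Hspg2* and *Cd44* had the lowest, 0.48. *Vcan* had correlations of 0.87 with both *Prg4* and *Has2*. All pairs share the libraries and the difference between genotypes, and the values are a description of 6 points.

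The rest of the pathway was described through 7 lists with 84 genes, of which 70 were tested. Of these, 47 lay above 0 in log2 fold change (median 0.15), where 45.6% of all genes tested lay above 0 with a median of −0.02. By edgeR, 0 were higher and 0 were lower at an adjusted p of 0.05, 15 of 70 were higher and 0 lower at an unadjusted p below 0.05 (5.76% of all genes tested were higher), DESeq2 called 3 higher (1.51% of all genes) and limma-voom called 0.

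The gene of these lists with the smallest p was *Lyve1*, a hyaluronan receptor of lymphatic vessels and of some tissue macrophages. It was at 7.93, 6.15 and 9.46 CPM in HET mice 1 to 3 and at 1.51, 2.41 and 3.59 CPM in WT mice 1 to 3. The genotypes did not overlap, and its log2 fold change was 1.63 (SE 0.28, edgeR adjusted p = 0.0785), and DESeq2 called it (adjusted p = 6.18e-06). Among the 10 tested proteins that bind or modify hyaluronan, 8 were above 0 and the lowest was *Stab2*, a scavenger receptor for hyaluronan, at −0.17 (SE 0.29, edgeR adjusted p = 0.948).

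Of 4 genes for hyaluronan and its sugar precursors, 2 were above 0, from −0.12 for *Ugp2* to 0.53 for *Ugdh*, the enzyme that makes UDP-glucuronate (edgeR adjusted p = 0.340). The 3 tested hyaluronidases and depolymerases lay between 0.06 for *Hyal2* and 0.29 for *Hyal1*, and all 3 were above 0. Of the 7 ADAMTS proteases that cut versican or aggrecan, 5 were above 0, from −0.05 for *Adamts9* to 0.78 for *Adamts4* (edgeR adjusted p = 0.520). Among 5 partners of CD44, 3 were above 0, from −0.14 for serglycin (*Srgn*) to 1.30 for osteopontin (*Spp1*, edgeR adjusted p = 0.460).

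Of 11 other heparan sulfate proteoglycans tested, 8 were above 0, from −0.18 for syndecan 4 (*Sdc4*) to 0.71 for *Col18a1* (SE 0.17, edgeR adjusted p = 0.174), which like perlecan sits in basement membranes. *Col18a1* was called by DESeq2 (adjusted p = 0.00823), and its levels were 26.3 ± 4.37 CPM (SD, n = 3) in HET and 16.0 ± 3.25 CPM (SD, n = 3) in WT mice without overlap. The enzymes that build sulfated sugar chains were the largest list, with 18 of 30 above 0 and a median of 0.06. They ran from −0.25 for *Hs6st2* to 0.68 for *Chst12* (edgeR adjusted p = 0.692). The chondroitin polymerizing factor gene *Chpf*, also at 0.68 (SE 0.16, edgeR adjusted p = 0.157), was the third gene called by DESeq2 (adjusted p = 0.0103) and was singled out after its values were seen.

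**Figure D4:**
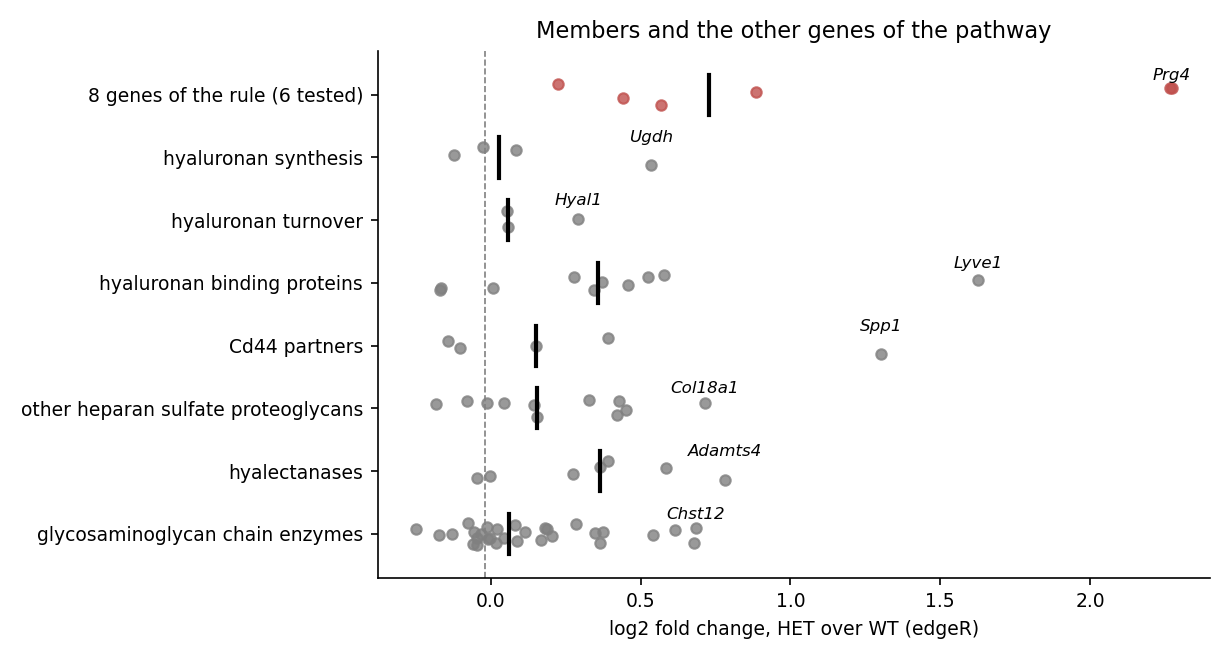
Log2 fold change of HET over WT (edgeR) for each tested gene of the rule (red) and of 7 further lists (gray), with the median of each list as a black bar and the median of all genes tested as a dashed line at −0.02. *Prg4* and *Has1* lie nearly on top of each other at 2.27, and the highest gene of each list is named.

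The summed markers of 4 other cell types were higher in every HET mouse than in any WT mouse, though few single markers passed the test outside the macrophage list. The 10 tenocyte markers summed to between 393 and 725 CPM in HET and between 131 and 319 CPM in WT mice, with 9 of 10 above 0 and 0 past the threshold by edgeR (7 at an unadjusted p below 0.05, 1 by DESeq2, 0 by limma-voom). For fibroblasts and fibro-adipogenic progenitors the sums were between 1570.1 and 2226 CPM in HET and between 831 and 1204 CPM in WT mice. Here 10 of 10 were above 0 and 1 (*Pi16*) was past the threshold by edgeR (8 at an unadjusted p below 0.05, 4 by DESeq2, 1 by limma-voom). The macrophage sums were between 86.1 and 124 CPM in HET and between 49.3 and 55.0 CPM in WT mice. Of these markers 10 of 10 were above 0 and 5 were past the threshold by edgeR (*Csf1r*, *Adgre1*, *C1qa*, *C1qb* and *Lyz2*). At an unadjusted p below 0.05 there were 9, with 7 called by DESeq2 and 4 by limma-voom. For cartilage markers, of which 4 of 8 were tested, the sums were between 33.1 and 46.8 CPM in HET and between 23.9 and 28.2 CPM in WT mice, with 3 of 4 above 0 and 0 past the threshold by edgeR (3 at an unadjusted p below 0.05, 1 by DESeq2, 0 by limma-voom). The separation of the cartilage sums needed the collagen gene *Col11a2*, without which they were between 16.5 and 19.3 CPM in HET and between 14.2 and 17.3 CPM in WT mice and overlapped. No marker of these 4 lists was at 0 reads over all libraries, but the untested cartilage markers *Cnmd*, *Matn1*, *Col9a1* and *Snorc* had at most 5, 3, 8 and 7 reads in any library. On average *Cnmd* (0.0165 CPM in HET, 0.0946 CPM in WT mice), *Matn1* (0.0267 and 0.0537) and *Col9a1* (0.0467 and 0.166) were lower in HET mice. *Snorc* was higher (0.0532 and 0), and the tested *Sox9* was at a log2 fold change of −0.02. The cartilage list therefore did not move in 1 direction. HET mouse 3 had the highest sum for macrophages and fibroblasts, and HET mouse 2 had it for tenocytes and cartilage. Marker by marker, HET mouse 3 was the highest for 8 of 10 macrophage, 8 of 10 fibroblast, 3 of 10 tenocyte and 2 of 4 tested cartilage markers. It was the highest for 0 of the endothelial, vascular smooth muscle and muscle fiber markers.

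The sums for endothelial cells, vascular smooth muscle and slow and fast muscle fibers overlapped between the genotypes, with a median log2 fold change of 0.04, 0.07, −0.08 and −0.18 and 5 of 8, 4 of 6, 1 of 7 and 0 of 7 markers above 0. In these bulk samples, a change in the number of cells of a type and a change in RNA per cell cannot be told apart. The part of tendon, fibroblast, cartilage and macrophage RNA in the levels of *Prg4*, *Has1* and the other genes was not tested.

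**Figure D5:**
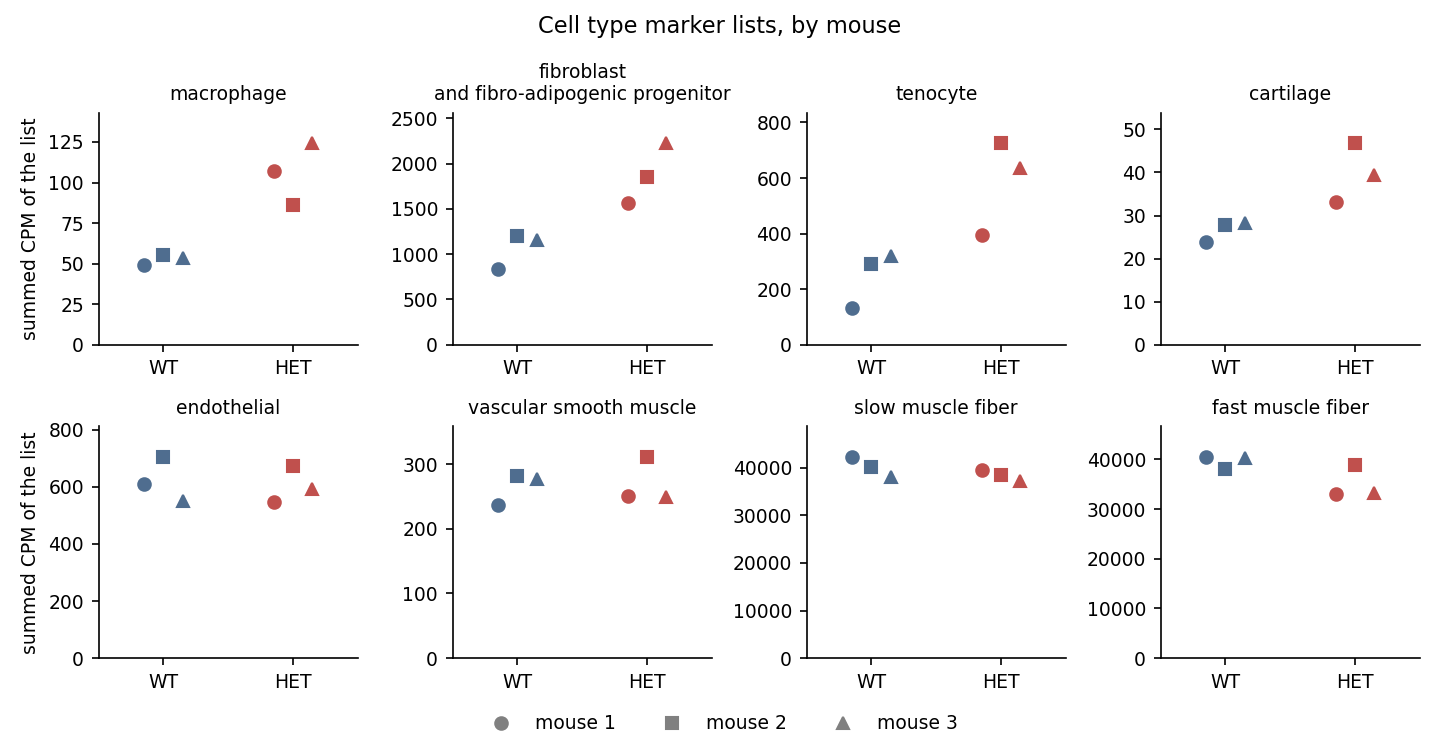
Summed CPM of 8 lists of cell type markers in each mouse (linear axes from 0), with WT mice in blue, HET mice in red and the mouse number as the shape. The genotypes are apart for macrophage, fibroblast, tenocyte and cartilage markers, the last only with *Col11a2* in the sum, and overlap for the other 4 lists.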

How the data were processed

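Poly-A RNA of 6 soleus muscles was sequenced with 1 library per mouse. The authors aligned the reads to GRCm38.p6 with STAR 2.7.3a and deposited raw counts per gene from featureCounts 2.0.3 in reverse-stranded mode for 51912 genes. The authors also deposited a signal for 16247 genes, tested to be each raw count over the library's DESeq2 size factor (0.773 to 1.42). The deposited file of their own comparison (fold changes and p-values) was not used. Columns left without a sample numbered 0.

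Genes were kept with edgeR's filterByExpr (minimum count 10, here 0.297 CPM in at least 3 libraries). The test between genotypes was edgeR's quasi-likelihood test with robust dispersion (edgeR 4.0.16, R 4.3.3) on the raw counts, with TMM factors and genotype as the only term. P-values were two-sided and Benjamini-Hochberg adjusted over all 14696 genes tested. The SE is the log2 fold change over the square root of F. CPM use TMM factors. Alternatives used DESeq2 1.42.0, limma-voom (limma 3.58.1), other scalings and filters, trends on length or GC content removed, the replicate number as a block, and each mouse left out. Steps were tested on simulated data. Follower genes were the 3, among all genes tested, with the highest Pearson correlation of log2 CPM (prior count 2) over the 6 libraries. Picking the highest of so many genes over 6 libraries gives high values by selection alone. They were at least 0.987 for every member tested, and for all members they are descriptions only.

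Members and lists were chosen with earlier results of these data known. The rule for named genes took the members, the targeted gene, label checks, the followers, and in each pathway list those past the threshold and the highest and lowest. *Has3*, *Hapln3*, *Chpf*, genes with too few reads to be tested and single cell type markers were named outside it, after their values were seen, and the sum without *Col11a2* and the counts without *Has1* were added then too. Litters are not given, so litter could not be entered in the fits or told apart from genotype. The p-values of the fits set the genotype difference against the spread within genotypes among these 6 samples. Sequences came from the RefSeq promoter table, where *Prg4* and *Has2* have no entry used here.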

Additional observations from a re-analysis of the deposited data

How the results depend on the processing

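The 6 members tested kept a log2 fold change above 0 under every alternative that gave a value. For *Has1* this sign was open only without the filter, which it passed only through its HET libraries. *Has1* was not tested with at least 10 counts in every library, and DESeq2 gave it no adjusted p without HET mouse 2 or 3. *Hspg2*, *Has2* and *Cd44* passed the threshold nowhere. *Prg4* passed with DESeq2 (2.29 on the log2 scale), with the replicate block (2.15), with the block and the length trend removed (2.15) or the GC trend removed (2.18), and, chosen after seeing the data, with DESeq2 without HET mouse 1 (2.61), HET mouse 3 (1.56) or WT mouse 3 (2.55). *Has1* passed without the filter (2.28), with DESeq2 (2.32) and with DESeq2 without HET mouse 1 (2.61), and *Vcan* without the filter (0.89) and with DESeq2 without HET mouse 2 (1.16). With edgeR and each mouse left out, log2 fold changes lay between 0.41 and 1.16 for *Vcan*, 0.11 and 0.34 for *Hspg2*, 1.56 and 2.59 for *Prg4*, 1.79 and 2.74 for *Has1*, 0.30 and 0.75 for *Has2* and 0.19 and 0.62 for *Cd44*. The cause of these changes was not tested.

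Over all genes, the 21 higher and 1 lower became 386 and 18 without the filter, 218 and 8 with DESeq2, 12 higher with limma-voom, 6 and 0 with non-robust dispersion and 6 higher with the GC trend removed. With a mouse left out they lay between 0 and 77 higher and between 0 and 6 lower, at 0 and 0 without HET mouse 1, HET mouse 3, WT mouse 1 or WT mouse 2, and at 77 and 6 without WT mouse 3. Of the 70 other pathway genes, 9 passed without the filter, 3 with DESeq2, between 0 and 1 with a mouse left out, and 0 in the other fits without the block.

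The replicate numbers were not shown to pair the mice: deviations of same-numbered mice correlated at 0.20, −0.01 and −0.03, and HET mouse 2 and HET mouse 3 correlated best with WT mouse 3 and WT mouse 2. With the replicate block 114 genes were higher and 2 lower, 140 and 2 with the length trend also removed, 94 and 2 with the GC trend also removed, and 2 other pathway genes passed in each of the 3. Depth limits *Acan*, *Hapln1* and *Has1*, which had at most 47 reads in any library.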

Other observations

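Several hyaluronan genes were read too rarely in soleus to be tested. The hyaluronan depolymerase gene *Cemip* had between 0 and 25 reads per library, the brain link protein genes *Hapln2* and *Hapln4* at most 11 and 4 reads, and the brain lecticans *Ncan* and *Bcan* at most 3 reads each. *Itih1*, a heavy chain that is joined to hyaluronan, had 0 reads in all 6 libraries.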
